A study of Mus musculus with 8 samples.

Results

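The comparison set a culture with a hairpin RNA against Mef2c (shMef2c) beside a culture with a control hairpin RNA (shCtrl), both at day 5 of neural differentiation. The pair makes up 2 of the 8 libraries of the series, and each condition had 1 library. FPKM values (fragments scaled to transcript length and library depth) were matched by gene identifier. Of 21069 features, the 13041 with a mean of 1 FPKM or more over the pair were compared, by the ratio log2((FPKM in shMef2c + 1)/(FPKM in shCtrl + 1)). At the edge of that filter, Tmem62 was just inside with 0.59 FPKM in shMef2c and 1.41 FPKM in shCtrl, and Pcdhb17 was just outside with 0.40 FPKM in shMef2c and 1.59 FPKM in shCtrl. Both cultures derive from 46C, a mouse embryonic stem cell line with a fluorescent reporter in the neural gene Sox1, labelled with the strain C57BL/6. At day 5 they had been aggregated from single stem cells in low-adhesion dishes in medium with knockout serum replacement, and are labelled as neural progenitor cells. LincNDIME_KO and unmodified WT cultures of the same line were differentiated alongside, and all 4 lines were also profiled at day 0 as stem cells on irradiated fibroblasts with leukemia inhibitory factor. The hairpin sequences and the number of clones or infected pools behind each line are not given in the sources used here.

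Mef2c encodes a MADS-box transcription factor of muscle, heart, endothelium and neurons, which binds the A/T-rich MEF2 site and is held in check by class IIa histone deacetylases. Embryonic stem cells that form aggregates without serum or leukemia inhibitory factor normally shut down the naive pluripotency network, pass through an epiblast-like state and turn on neuroectoderm genes such as Sox1 and Pax6. The same epiblast state can also give rise to primitive streak and to caudal progenitors, which are marked by T and Cdx genes and are fed by Wnt, FGF and Nodal signals. The comparison asks which of these programmes differed when the hairpin against Mef2c was present.

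The shMef2c library held 26616030 estimated reads on genes and the shCtrl library 25996204, and the other 6 libraries held between 20312032 and 26834802. With 1 library a side nothing checks a difference against replicates and no p-value can be had, and a gene is counted as higher or lower at a ratio of 2-fold or more in size. Counting intervals given below cover counting error only and not the difference between cultures. Apart from that of Mef2c, they are for genes picked among the highest or lowest ratios of these same libraries. They describe size and do not test a difference. The day 5 WT culture served as a further control library, given where it bears on a result. RNA came from whole cultures, so fewer cells of a type and less RNA per cell cannot be told apart.

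Mef2c itself was scarce, at 0.12 FPKM in shMef2c, against 0.50 FPKM in shCtrl. That is 20 reads in shMef2c and 82 reads in shCtrl, and its share of reads in shMef2c was 0.238 times that in shCtrl (95% counting interval 0.138 to 0.392). The gene lay under the filter and its ratio is not counted below. At day 0 it stood at 0.37 RPKM in the library labelled shMef2c and 0.16 RPKM in shCtrl, which runs against the label of that day 0 library. Of the other family members, Mef2a had 4.56 FPKM in shMef2c and 6.76 FPKM in shCtrl, Mef2d had 6.95 FPKM in shMef2c and 6.47 FPKM in shCtrl, and Mef2b had 0.42 FPKM in shMef2c and 0.58 FPKM in shCtrl. Among 10 class IIa deacetylase and partner genes, 8 were measured and 1 was lower, beside 4.78% lower over all genes compared. It was the deacetylase Hdac7 with 3.25 FPKM in shMef2c, against 7.51 FPKM in shCtrl. The related Hdac9, itself described as a MEF2 target, had 1.15 FPKM in shMef2c and 2.69 FPKM in shCtrl.

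Genes described elsewhere as direct MEF2 targets in muscle, neurons or endothelium were mostly within 2-fold. Of 28 listed, 15 were measured, 3 were higher and 1 was lower, beside 4.49% higher and 4.78% lower over all genes compared. The list had a median log2 ratio of 0.09, against -0.05 over all genes compared. That median turned to -0.09 on estimated counts with TMM factors and to -0.12 with DESeq2 size factors. With WT as the control 2 of 15 were higher and none was lower. The muscle structural gene Mylpf, a myosin light chain, was higher at 119 FPKM in shMef2c, against 15.9 FPKM in shCtrl. Mylpf was already abundant in the stem cells of day 0, at 168 RPKM in the library labelled shMef2c and 154 RPKM in shCtrl. The Krüppel-like factor Klf2, a MEF2 target in endothelium and a pluripotency factor in stem cells, was higher at 59.6 FPKM in shMef2c, against 12.7 FPKM in shCtrl. The remaining higher member was Klf4, also a pluripotency factor, at 4.59 FPKM in shMef2c, against 1.02 FPKM in shCtrl. Jun, an AP-1 transcription factor, was lower at 6.28 FPKM in shMef2c, against 14.4 FPKM in shCtrl, while Egr1 had 3.23 FPKM in shMef2c and 3.97 FPKM in shCtrl and Nr4a1 had 7.23 FPKM in shMef2c and 5.02 FPKM in shCtrl. Jun was the 1 lower member and stayed within 2-fold against WT, at a log2 ratio of -0.52.

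The promoters of Klf2 and Jun are printed because each carries the core of the MEF2 site within the bases before its start, and their RNA levels differed in opposite directions. The sequences are the 250 bases before the annotated start, from RefSeq on build GRCm38.p6, written 5′ to 3′ along the gene, with the MEF2 core CTANNNNTAG in capitals.
Klf2, chr8:72318812-72319061, plus strand: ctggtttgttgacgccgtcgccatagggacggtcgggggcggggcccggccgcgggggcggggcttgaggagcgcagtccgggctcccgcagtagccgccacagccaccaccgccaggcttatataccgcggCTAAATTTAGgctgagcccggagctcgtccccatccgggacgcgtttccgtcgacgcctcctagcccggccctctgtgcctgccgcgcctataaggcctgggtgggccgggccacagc
Jun, chr4:95052223-95052472, minus strand: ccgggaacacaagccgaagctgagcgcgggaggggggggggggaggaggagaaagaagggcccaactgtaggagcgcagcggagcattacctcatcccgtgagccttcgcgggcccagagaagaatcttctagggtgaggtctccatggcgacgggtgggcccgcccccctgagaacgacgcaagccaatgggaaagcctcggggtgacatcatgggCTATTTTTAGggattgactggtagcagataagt
The core begins 118 bases before the start in Klf2 and 33 bases before it in Jun. The core reads the same on both strands. Over windows of 300 bases (250 before to 50 after the start), it was present in 275 of the 9808 compared genes that had a promoter in the table, or 2.80%. It was present in 14 of 371 higher genes (3.77%) and in 15 of 412 lower genes (3.64%). The middle letters (N) were left free, so these counts include matches that are not A/T-rich there, such as CTAGCCGTAG before Tfcp2l1. Among 11 listed MEF2 targets with a promoter and a mean past the filter, 3 held the core, the third being the intermediate filament gene Des with 2.37 FPKM in shMef2c and 1.68 FPKM in shCtrl. A match describes the letters in this window and does not show binding.

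Over all 13041 genes, 585 (4.49%) were 2-fold or more higher in shMef2c and 623 (4.78%) were 2-fold or more lower, 9.26% in either direction. Counts of higher and lower members in each gene list are to be read beside these shares. The 5th and 95th percentiles of the log2 ratio were -0.97 and 0.94, and 75.6% of genes lay within 1.5-fold. Large ratios were more common among the lower genes: 38 were at or past 8-fold lower and 7 at or past 8-fold higher. With WT as the control library, 512 of 12844 genes (3.99%) were higher in shMef2c and 414 (3.22%) lower. Against both control libraries, 390 genes (2.99%) were higher and 379 (2.91%) lower. Scarce genes reached the 2-fold line more often: of genes with a mean of 1 to 2 FPKM, 6.21% were higher and 8.61% lower, against 1.72% and 1.23% of genes at 100 FPKM or more. A gene scarce in 1 library can pass the filter through the other library alone, which tilts list counts toward such genes.

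**Figure D1:**
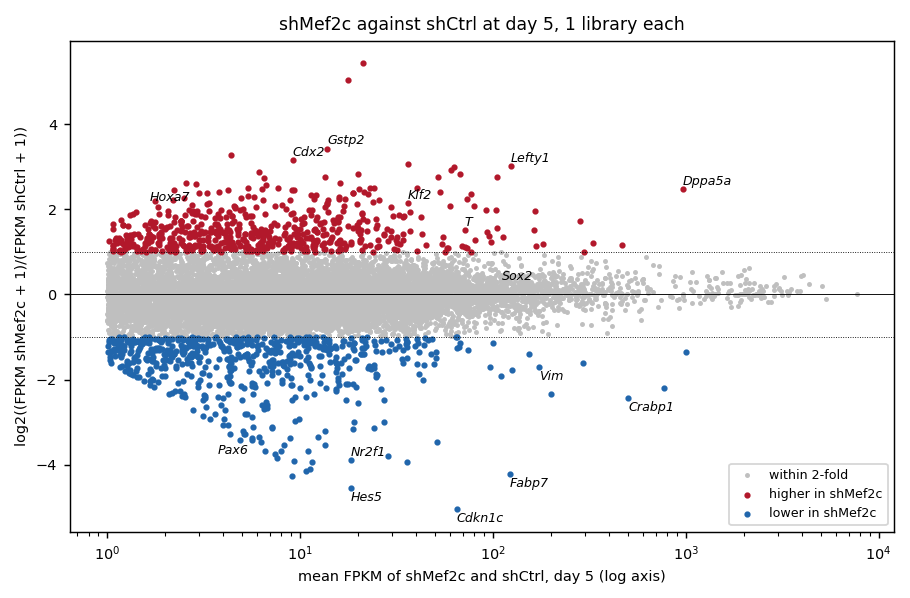
Each point is 1 of the 13041 genes, by its mean FPKM over shMef2c and shCtrl (log axis) and its log2 ratio of shMef2c over shCtrl at day 5. Red points are the 585 genes at or past 2-fold higher, blue points the 623 at or past 2-fold lower, and dotted lines mark 2-fold. Sox2 lies near 0 while Hes5, Fabp7 and Cdkn1c lie among the lowest. The 2 highest points are features the authors predicted, without a gene name.

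The lowest ratio of all was that of Cdkn1c, an imprinted inhibitor of cyclin-dependent kinases, at 2.85 FPKM in shMef2c, against 127 FPKM in shCtrl. Its share of reads was 0.0224 times that in shCtrl (95% counting interval 0.0188 to 0.0265). Ly6h, a brain-enriched membrane-anchored protein, had 2.97 FPKM in shMef2c and 54.3 FPKM in shCtrl. The homeobox gene Nkx6-2 had 3.54 FPKM in shMef2c and 68.0 FPKM in shCtrl, and Nhlh2, a helix-loop-helix factor of young neurons, had 0.10 FPKM in shMef2c and 13.1 FPKM in shCtrl. Each of these was also at or past 4-fold lower when WT was the control library, with log2 ratios of -4.53, -3.31, -3.60 and -2.55.

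The highest ratios among named genes were those of Gstp2 and Cdx2, a caudal regulator. Cdx2 had a share of reads 16.3 times that in shCtrl (95% counting interval 12.5 to 21.7), and Gstp2, a glutathione transferase, 17.2 times that in shCtrl (95% counting interval 11.8 to 26.2). Gstp2 and the defensin-related genes Defa-rs2 (108 FPKM in shMef2c and 13.4 FPKM in shCtrl) and Defa-rs4 (28.4 FPKM in shMef2c and 3.75 FPKM in shCtrl) have near-identical copies, so how reads were split among copies is uncertain. Ass1, an enzyme of arginine synthesis, had 112 FPKM in shMef2c and 13.2 FPKM in shCtrl, and the small heat-shock protein Hspb1 had 184 FPKM in shMef2c and 26.3 FPKM in shCtrl. Btg3, an antiproliferative gene, had 161 reads in shMef2c and was listed at 0 in shCtrl, with 2.27 FPKM in WT, so no fold is given.

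**Figure D2:**
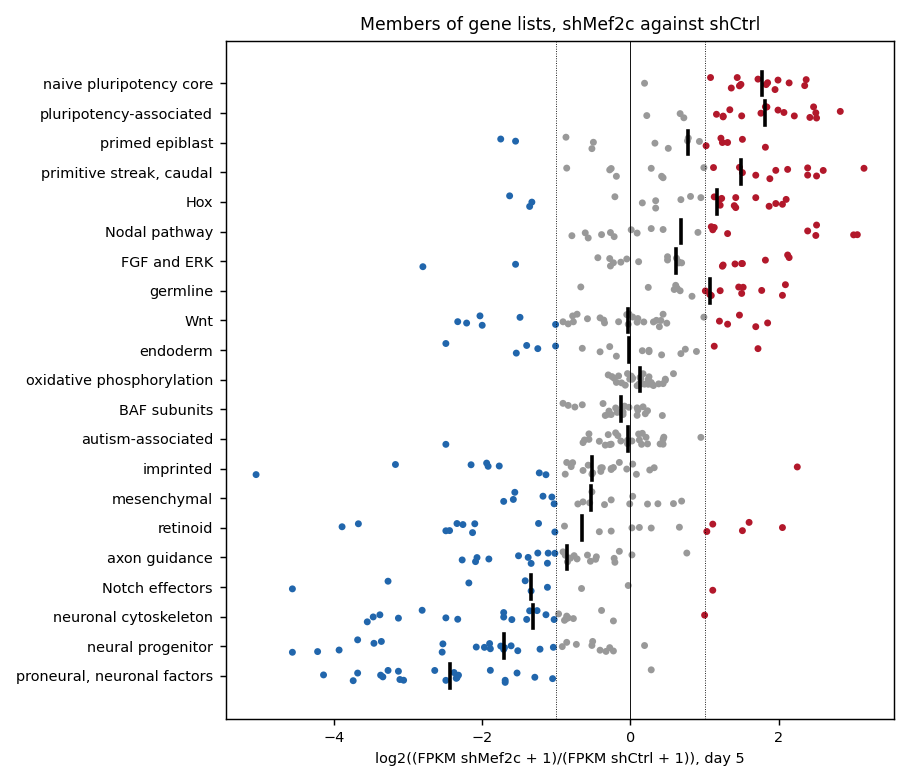
Points are the measured members of 21 gene lists, by log2 ratio of shMef2c over shCtrl at day 5, and black bars are list medians. Red points are 2-fold or more higher, blue points 2-fold or more lower. Medians run from 1.82 for pluripotency-associated genes to -2.43 for proneural and neuronal factors.

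The label of neural progenitor cells was checked against 6 defining markers. All of them (Sox1, Pax6, Nes, Hes5, Fabp7 and Dbx1) were lower in shMef2c, and their summed level was 25.1 FPKM, against 350.7 FPKM in shCtrl and 283.7 FPKM in WT. None was at 0. Over the same libraries the 6 stem cell markers summed to 2461 FPKM in shMef2c, against 505 FPKM in shCtrl and 752 FPKM in WT, and all 6 were higher. The label therefore holds for shMef2c only in part, and the culture is called by its hairpin here.

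Most measured neural progenitor genes were lower in shMef2c. Of 34 listed genes, 29 were measured, 19 were lower and none was higher, and the median log2 ratio was -1.70 (-1.70 with WT as the control). Hes5, a transcriptional repressor that keeps progenitors undifferentiated, had 0.57 FPKM in shMef2c, against 36.0 FPKM in shCtrl. Fabp7, a fatty acid binding protein of radial glia, had 11.6 FPKM in shMef2c, against 233 FPKM in shCtrl. For Hes5 the difference was larger than counting error: its share of reads in shMef2c was 0.0156 times that in shCtrl (95% counting interval 0.00924 to 0.0248). Hes5 was among the lowest ratios of these same libraries, so the interval describes that gene only and not the other members. Pax6, a master regulator of the eye and neural tube, had 0.21 FPKM in shMef2c, 12.3 FPKM in shCtrl, 8.15 FPKM in LincNDIME_KO and 12.0 FPKM in WT. It was the lowest of the 4 cultures in shMef2c, as were Hes5, Fabp7, Dbx1 and Sox1. Sox1, the reporter locus of the line, had 2.45 FPKM in shMef2c, 13.6 FPKM in shCtrl, 12.1 FPKM in LincNDIME_KO and 15.8 FPKM in WT. The ventral neural tube factors Nkx6-1 (5.12 FPKM in shMef2c and 34.6 FPKM in shCtrl) and Nkx2-2 (1.26 FPKM in shMef2c and 12.1 FPKM in shCtrl) were lower too. Ednrb, an endothelin receptor of progenitors, had 1.39 FPKM in shMef2c and 23.5 FPKM in shCtrl, and the intermediate filament gene Nes had 10.0 FPKM in shMef2c and 40.2 FPKM in shCtrl. Sox2, shared by stem cells and neural progenitors, had 118 FPKM in shMef2c, 103 FPKM in shCtrl, 104 FPKM in LincNDIME_KO and 98.4 FPKM in WT.

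Proneural and early neuronal transcription factors were the list with the lowest median, -2.43. Of 22 measured members, 21 were lower and none was higher. With no filter on low values, 22 of 29 were lower and none was higher. Neurod4, a proneural helix-loop-helix factor, had 0.17 FPKM in shMef2c, against 14.6 FPKM in shCtrl, on 15 reads in shMef2c and 1266 reads in shCtrl. Neurog1 had 0.18 FPKM in shMef2c and 6.33 FPKM in shCtrl, Neurog2 had 0.78 FPKM in shMef2c and 4.74 FPKM in shCtrl, Insm1 had 0.28 FPKM in shMef2c and 12.0 FPKM in shCtrl and Pou3f3 had 0.75 FPKM in shMef2c and 17.1 FPKM in shCtrl. The exception was Lhx1, which is expressed in early mesendoderm as well as in interneurons, with 6.74 FPKM in shMef2c and 5.38 FPKM in shCtrl. Counting was not stated to use strand, so reads of Pou3f3 cannot be told apart from those of its antisense neighbour.

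Neuronal cytoskeleton genes followed, with 15 of 24 lower, 1 higher and a median of -1.31. The doublecortin gene Dcx, a microtubule protein of migrating neurons, had 0.15 FPKM in shMef2c, against 7.09 FPKM in shCtrl. The neurofilament genes Nefl and Nefm had 7.59 FPKM in shMef2c and 94.4 FPKM in shCtrl and 1.27 FPKM in shMef2c and 25.6 FPKM in shCtrl, with 46.8 and 15.5 FPKM in WT. Nefh, the heavy neurofilament, was the 1 member on the other side with 2.46 FPKM in shMef2c and 0.73 FPKM in shCtrl, at the 2-fold line, and with WT as the control no member was higher. Stmn1 (261 FPKM in shMef2c and 307 FPKM in shCtrl) and Stmn2 (45.6 FPKM in shMef2c and 85.5 FPKM in shCtrl), which regulate microtubules, differed less. At day 0, Stmn2 and Tubb3 were already well above the filter, with 126 RPKM in the library labelled shMef2c and 138 RPKM in shCtrl for Stmn2 and 90.8 RPKM in the library labelled shMef2c and 69.7 RPKM in shCtrl for Tubb3.

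RNA-binding proteins of neurons were lower in 6 of 14 measured members, with none higher and a median of -0.70. Celf3 had 0.17 FPKM in shMef2c, against 9.92 FPKM in shCtrl, Elavl3 had 1.11 FPKM in shMef2c, against 12.3 FPKM in shCtrl and the splicing regulator Srrm4 had 0.37 FPKM in shMef2c, against 3.07 FPKM in shCtrl. The broadly expressed Rbfox2 had 14.5 FPKM in shMef2c and 15.6 FPKM in shCtrl, and Igf2bp1, an RNA-binding protein of growing cells, had 42.0 FPKM in shMef2c and 36.8 FPKM in shCtrl, both within 2-fold. Synapse genes were lower in 6 of 19, among them Syp (1.12 FPKM in shMef2c and 7.21 FPKM in shCtrl) and Snap25 (0.54 FPKM in shMef2c and 4.65 FPKM in shCtrl). With WT as the control library 3 of 17 synapse genes were lower.

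Axon guidance genes were lower in 11 of 27 measured members and higher in none, with a median of -0.85. The receptor Robo3, which acts in midline crossing of hindbrain axons, had 0.16 FPKM in shMef2c, against 4.61 FPKM in shCtrl. The netrin receptor Dcc had 0.13 FPKM in shMef2c, against 1.94 FPKM in shCtrl, and the repulsive ligand Slit1 had 1.94 FPKM in shMef2c, against 11.5 FPKM in shCtrl. The sister ligand Slit2, which the floor plate also makes, had 7.47 FPKM in shMef2c and 8.85 FPKM in shCtrl, and the ligand Ntn1 had 21.2 FPKM in shMef2c and 35.6 FPKM in shCtrl. Ligand paralogs therefore differed in size: Slit1 was at a log2 ratio of -2.09 and Slit2 at -0.22.

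The Notch pathway, in which ligands on neighbours keep progenitors from differentiating, had lower effector genes in shMef2c, while its receptors were within 2-fold. Notch1, Notch2 and Notch3 had 6.50 FPKM in shMef2c and 8.52 FPKM in shCtrl, 6.14 FPKM in shMef2c and 8.96 FPKM in shCtrl and 17.3 FPKM in shMef2c and 15.4 FPKM in shCtrl, all within 2-fold. The DNA-binding effector Rbpj had 31.2 FPKM in shMef2c and 23.8 FPKM in shCtrl. Of the ligands, Dll1 was lower at 3.43 FPKM in shMef2c, against 12.9 FPKM in shCtrl, while Jag1 had 6.09 FPKM in shMef2c and 6.85 FPKM in shCtrl. The glycosyltransferases Lfng (4.90 FPKM in shMef2c and 17.6 FPKM in shCtrl) and Mfng (4.72 FPKM in shMef2c and 18.1 FPKM in shCtrl), which tune receptor response, were lower. In all, 4 of 18 ligand, receptor and modifier genes were lower and none was higher. Among 9 measured effectors 6 were lower and 1 was higher, with a median of -1.34. The feedback inhibitor Nrarp had 6.37 FPKM in shMef2c, against 32.4 FPKM in shCtrl and Hey1 had 5.65 FPKM in shMef2c, against 15.8 FPKM in shCtrl. Hes1, which other signals also drive, had 34.1 FPKM in shMef2c and 34.7 FPKM in shCtrl. Hes7, the oscillating repressor of presomitic mesoderm, was the higher one at 2.29 FPKM in shMef2c, against 0.52 FPKM in shCtrl, on 54 reads in shMef2c and 12 reads in shCtrl.

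The promoter of Hes5 is shown because this Notch target was among the genes with the lowest ratios and holds a pair of RBPJ cores, TGGGAA or its reverse complement TTCCCA, in capitals in the 250 bases before its start (RefSeq, GRCm38.p6).
Hes5, chr4:154960673-154960922, plus strand: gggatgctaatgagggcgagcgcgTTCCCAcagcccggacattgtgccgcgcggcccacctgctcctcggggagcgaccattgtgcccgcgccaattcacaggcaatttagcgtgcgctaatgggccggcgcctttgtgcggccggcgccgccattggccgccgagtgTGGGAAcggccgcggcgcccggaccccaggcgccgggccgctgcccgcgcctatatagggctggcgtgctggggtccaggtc
The matches begin 226 and 82 bases before the start. RBPJ cores are short and common, and were present on either strand in 2193 of 9808 promoter windows (22.4%), in 85 of 371 higher genes (22.9%) and in 87 of 412 lower genes (21.1%). Of 6 Notch effectors with a window, 4 held at least 1 core. No RBPJ core overlapped a MEF2 core in any window.

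Pluripotency genes were higher in shMef2c than in shCtrl. Of 14 measured naive core factors 13 were higher and none was lower, with a median log2 ratio of 1.77 (1.41 with WT as the control). The factor Zfp42, a stem cell zinc finger protein, had 129 FPKM in shMef2c, 24.1 FPKM in shCtrl, 106 FPKM in LincNDIME_KO and 36.9 FPKM in WT. Esrrb, a nuclear receptor of the naive network, had 38.1 FPKM in shMef2c, 6.68 FPKM in shCtrl, 35.7 FPKM in LincNDIME_KO and 9.22 FPKM in WT. For both genes the 2 hairpin cultures bracketed the others, shMef2c highest and shCtrl lowest. Nanog had 148 FPKM in shMef2c, against 36.7 FPKM in shCtrl, Pou5f1 had 433 FPKM in shMef2c, against 131 FPKM in shCtrl and Klf4 had 4.59 FPKM in shMef2c, against 1.02 FPKM in shCtrl. At day 0, Zfp42 stood at 359.9 RPKM in the library labelled shMef2c and 367 RPKM in shCtrl and Klf4 at 160.0 RPKM in the library labelled shMef2c and 145 RPKM in shCtrl. RPKM and FPKM tables were normalized separately, so these levels are set side by side.

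Pluripotency-associated genes showed the same direction, with 16 of 19 higher, none lower and a median of 1.82. Dppa5a, an RNA-binding protein of stem cells, was the most abundant at 1642 FPKM in shMef2c, against 295 FPKM in shCtrl. Dppa2, an embryonic chromatin factor, had 35.6 FPKM in shMef2c, against 4.16 FPKM in shCtrl, and Tdh, a threonine dehydrogenase that feeds stem cell metabolism, had 90.2 FPKM in shMef2c, against 16.1 FPKM in shCtrl. Tet2 was within 2-fold with 4.33 FPKM in shMef2c and 3.59 FPKM in shCtrl, while Tet1 was higher with 8.72 FPKM in shMef2c and 3.34 FPKM in shCtrl. Primed epiblast genes were mixed, with 6 of 16 higher and 2 lower over shCtrl, 3 higher and 3 lower over WT, and 3 higher and 2 lower over both. Fgf5, the usual marker of the epiblast state, had 20.2 FPKM in shMef2c, against 7.95 FPKM in shCtrl and was nearly absent at day 0, with 0.18 RPKM in the library labelled shMef2c and 0.10 RPKM in shCtrl. Etv5 had 66.2 FPKM in shMef2c and 18.1 FPKM in shCtrl. Sox3 (10.1 FPKM in shMef2c and 36.4 FPKM in shCtrl) and Fgf15 (9.36 FPKM in shMef2c and 29.4 FPKM in shCtrl), which neural progenitors also express, were the 2 lower members. Otx2 had 24.4 FPKM in shMef2c, against 35.0 FPKM in shCtrl and 18.2 FPKM in WT, so its direction turned with the control library.

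**Figure D3:**
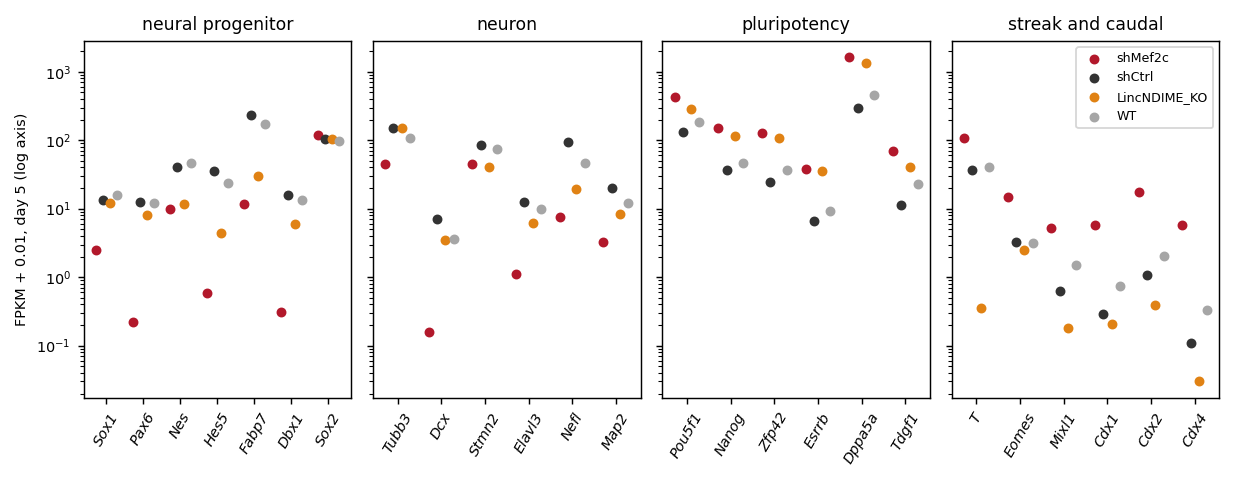
FPKM + 0.01 on a log axis for marker genes in the 4 day 5 cultures, 1 library each, ordered shMef2c, shCtrl, LincNDIME_KO, WT. In shMef2c the neural progenitor and neuron markers except Sox2 lie below both shCtrl and WT, and the pluripotency, streak and caudal genes lie above them.

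Primitive streak and caudal genes were higher in shMef2c, and several of them had been scarce at day 0. Of 20 measured members 12 were higher and none was lower, with a median of 1.49 (1.39 with WT). Some higher members, such as Cdx4 with 0.10 FPKM in shCtrl, passed the filter through their level in shMef2c, which tilts that count. With no filter on low values 12 of 28 were higher, none was lower and the median was 0.62. T, the brachyury factor of streak and notochord, had 106 FPKM in shMef2c, 36.5 FPKM in shCtrl, 0.35 FPKM in LincNDIME_KO and 40.5 FPKM in WT. Cdx2, which sets caudal identity and also acts in trophoblast, had 17.3 FPKM in shMef2c, 1.06 FPKM in shCtrl, 0.38 FPKM in LincNDIME_KO and 2.02 FPKM in WT. Cdx4 had 5.69 FPKM in shMef2c, 0.10 FPKM in shCtrl, 0.02 FPKM in LincNDIME_KO and 0.32 FPKM in WT. All 3 were highest in shMef2c and lowest in LincNDIME_KO. At day 0, T stood at 6.35 RPKM in the library labelled shMef2c and 5.63 RPKM in shCtrl and Cdx2 at 0.88 RPKM in the library labelled shMef2c and 0.72 RPKM in shCtrl. Nkx1-2, a marker of caudal neural and mesodermal progenitors, had 13.8 FPKM in shMef2c, against 1.60 FPKM in shCtrl, and Wnt8a had 23.4 FPKM in shMef2c, against 6.54 FPKM in shCtrl. The node and organizer factor Gsc had 15.1 FPKM in shMef2c and 6.41 FPKM in shCtrl, and Mixl1 had 5.25 FPKM in shMef2c and 0.61 FPKM in shCtrl. Markers of committed mesoderm were scarce: Tbx6 had 1.16 FPKM in shMef2c and 0.39 FPKM in shCtrl, Msgn1 had 0.77 FPKM in shMef2c and 0.16 FPKM in shCtrl and Mesp1 had 0.51 FPKM in shMef2c and 0.30 FPKM in shCtrl. Sp8 (3.15 FPKM in shMef2c and 6.52 FPKM in shCtrl) and Foxa2 (30.6 FPKM in shMef2c and 37.4 FPKM in shCtrl) were within 2-fold.

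Hox genes, which give cells their position along the head to tail axis, split by paralog group. In groups 1 to 3, which pattern the hindbrain, 3 of 7 measured genes were lower and 1 was higher, and the summed level over 8 genes was 49.6 FPKM in shMef2c, against 89.2 FPKM in shCtrl and 117.0 FPKM in WT. In groups 4 to 9, 11 of 15 measured genes were higher and none was lower. Most of the 11, such as Hoxd8 with 0.29 FPKM in shCtrl, passed the filter through their level in shMef2c, which tilts that count. Without regard to the filter, 19 of 19 genes of these groups stood above shCtrl. Their summed level was 65.8 FPKM in shMef2c, against 17.3 FPKM in shCtrl and 10.4 FPKM in WT. In LincNDIME_KO the 2 sums were 16.1 and 3.4 FPKM. The 12 genes of groups 10 to 13 all lay under the filter and summed to 4.1 FPKM in shMef2c and 0.9 FPKM in shCtrl.

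The lower members were Hoxb3 (7.08 FPKM in shMef2c and 23.9 FPKM in shCtrl), Hoxa2 (3.95 FPKM in shMef2c and 11.7 FPKM in shCtrl) and Hoxb2 (13.6 FPKM in shMef2c and 35.6 FPKM in shCtrl). Hoxb1 was within 2-fold with 10.6 FPKM in shMef2c and 12.3 FPKM in shCtrl. Of the trunk genes, Hoxa7 had 5.10 FPKM in shMef2c, against 0.42 FPKM in shCtrl, Hoxc8 had 5.04 FPKM in shMef2c, against 0.55 FPKM in shCtrl and Hoxa9 had 3.83 FPKM in shMef2c, against 0.32 FPKM in shCtrl. Hoxb9 was the most abundant of groups 4 to 9 with 11.7 FPKM in shMef2c, 2.94 FPKM in shCtrl, 0.20 FPKM in LincNDIME_KO and 1.98 FPKM in WT. Higher members came from all 4 clusters. The antisense RNA Hoxaas3 had 12.2 FPKM in shMef2c and 1.21 FPKM in shCtrl, and without strand its reads cannot be told apart from those of overlapping Hoxa genes. Of the 22 measured Hox genes only 5 had a mean of 5 FPKM or more, and over those 5 the median was -1.33, against 1.16 over all 22.

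**Figure D4:**
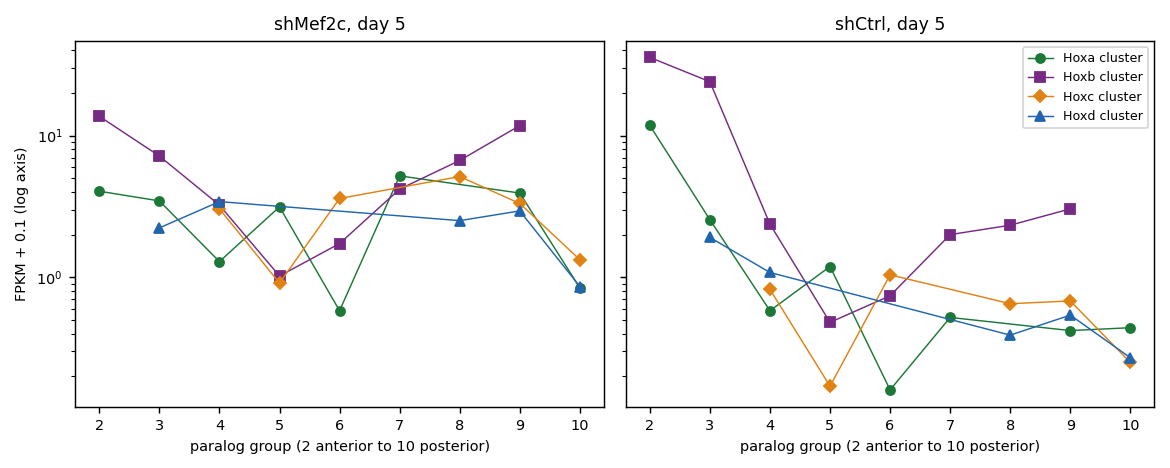
FPKM + 0.1 on a log axis for Hox genes of paralog groups 2 to 10 in shMef2c (left) and shCtrl (right) at day 5, with 1 line per cluster. In shMef2c, groups 2 and 3 of the Hoxb cluster lie lower and groups 7 to 9 of all clusters lie higher than in shCtrl, where levels are low after group 3.

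Nodal signalling, which maintains the epiblast and induces streak, had higher levels of ligand, co-receptor and inhibitors in shMef2c. Its receptors and the mediators Smad2 and Smad4 were within 2-fold. Another Smad gene, Smad7, was higher with 7.61 FPKM in shMef2c, against 2.48 FPKM in shCtrl. Of 20 measured genes 9 were higher and none was lower. The ligand Nodal had 32.5 FPKM in shMef2c, against 5.38 FPKM in shCtrl, and Gdf3, a related ligand, had 39.9 FPKM in shMef2c, against 6.23 FPKM in shCtrl. The co-receptor Tdgf1 had 69.7 FPKM in shMef2c, against 11.4 FPKM in shCtrl. The secreted inhibitors, which Nodal itself induces, had the largest ratios, with 221 FPKM in shMef2c, against 26.6 FPKM in shCtrl for Lefty1 and 65.5 FPKM in shMef2c, against 6.99 FPKM in shCtrl for Lefty2. The share of Lefty1 reads was 8.28 times that in shCtrl (95% counting interval 7.77 to 8.83). At day 0 Lefty1 stood at 39.3 RPKM in the library labelled shMef2c and 55.4 RPKM in shCtrl. In that shMef2c library Nodal stood at 41.8, Gdf3 at 103, Tdgf1 at 372 and Lefty2 at 152 RPKM. In shCtrl at day 0 they stood at 37.9, 88.2, 371 and 166 RPKM. Gdf3 and Tdgf1 are also counted among the pluripotency-associated genes. The inhibitor Cer1 had 30.3 FPKM in shMef2c and 13.3 FPKM in shCtrl, and the partner factor Foxh1 had 34.5 FPKM in shMef2c and 15.4 FPKM in shCtrl. The receptor genes Acvr1b (7.75 FPKM in shMef2c and 7.66 FPKM in shCtrl) and Acvr2b (14.1 FPKM in shMef2c and 18.7 FPKM in shCtrl) and the mediators Smad2 (8.74 FPKM in shMef2c and 10.4 FPKM in shCtrl) and Smad4 (24.7 FPKM in shMef2c and 29.9 FPKM in shCtrl) stood apart from this.

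FGF ligands and the feedback genes of the ERK kinase pathway were higher in 8 of 23 measured members and lower in 2, and over WT in 5 and 2. Fgf8 had 32.6 FPKM in shMef2c, against 6.73 FPKM in shCtrl, Fgf17 had 6.13 FPKM in shMef2c, against 0.62 FPKM in shCtrl and Fgf4 had 14.7 FPKM in shMef2c, against 5.59 FPKM in shCtrl. Dusp6, a phosphatase that ERK activity induces, had 50.4 FPKM in shMef2c, against 18.3 FPKM in shCtrl and 29.1 FPKM in WT. The feedback inhibitor Spry4 had 5.91 FPKM in shMef2c, against 1.45 FPKM in shCtrl and 2.48 FPKM in WT. Against WT these 2 stayed within 2-fold, at log2 ratios of 0.77 and 0.99. Fgfr3, a receptor of neural progenitors, was lower at 0.55 FPKM in shMef2c, against 9.83 FPKM in shCtrl, while Fgfr1 had 28.6 FPKM in shMef2c and 31.4 FPKM in shCtrl. Immediate early genes, which also respond to ERK, were lower in 1 of 13 measured members and higher in none, with 1.30 FPKM in shMef2c and 1.77 FPKM in shCtrl for Fos.

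Wnt pathway genes went both ways, 5 of 35 higher and 6 lower, around a median of -0.03. The shares over all genes compared were 4.49% higher and 4.78% lower. Lower members included the neural ligands Wnt7a (0.16 FPKM in shMef2c and 4.84 FPKM in shCtrl) and Wnt1 (0.05 FPKM in shMef2c and 3.28 FPKM in shCtrl), the receptor Fzd3 (2.91 FPKM in shMef2c and 17.1 FPKM in shCtrl) and the secreted inhibitor Sfrp1 (16.9 FPKM in shMef2c and 70.4 FPKM in shCtrl). Higher members included the targets Sp5 (23.2 FPKM in shMef2c and 7.71 FPKM in shCtrl), Notum (9.41 FPKM in shMef2c and 1.89 FPKM in shCtrl) and Lef1 (11.4 FPKM in shMef2c and 4.03 FPKM in shCtrl). In the BMP list 2 of 19 were higher and 4 lower. Its target Id1, an inhibitor of helix-loop-helix factors, had 22.3 FPKM in shMef2c, against 49.4 FPKM in shCtrl, and Id2 had a log2 ratio of -1.64. Id4 had 4.59 FPKM in shMef2c and 13.9 FPKM in shCtrl, and the ligand Bmp4 had 4.66 FPKM in shMef2c and 1.59 FPKM in shCtrl. With WT as the control none of the list was higher and 2 were lower. Hedgehog genes were lower in 3 of 14, with 13.4 FPKM in shMef2c and 28.4 FPKM in shCtrl for the ligand Shh and 15.3 FPKM in shMef2c and 18.2 FPKM in shCtrl for the target Gli1, and in 1 of 12 against WT.

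Retinoid genes, whose ligand posteriorizes neural tissue, were lower in 10 of 22 measured members and higher in 5. The binding proteins Crabp1 (156 FPKM in shMef2c, against 849.8 FPKM in shCtrl and 1634 FPKM in WT) and Crabp2 (65.0 FPKM in shMef2c, against 333 FPKM in shCtrl and 464 FPKM in WT) were among the most abundant RNAs of the control cultures. The retinoic acid degrading enzyme Cyp26b1 had 0.74 FPKM in shMef2c, against 21.2 FPKM in shCtrl, while its paralog Cyp26a1, a caudal gene, had 27.7 FPKM in shMef2c, against 33.3 FPKM in shCtrl and 8.67 FPKM in WT. Cyp26a1 was thus level with shCtrl and above WT. The nuclear receptor Nr2f1 had 1.43 FPKM in shMef2c, against 35.1 FPKM in shCtrl and Meis1, a Hox cofactor, had 4.66 FPKM in shMef2c, against 26.1 FPKM in shCtrl. Higher were the retinol transporter Stra6 (11.1 FPKM in shMef2c and 2.99 FPKM in shCtrl), the receptor Rarg (31.1 FPKM in shMef2c and 10.3 FPKM in shCtrl), the germ cell gene Stra8 (10.2 FPKM in shMef2c and 1.69 FPKM in shCtrl), Dhrs3 (5.47 FPKM in shMef2c and 1.99 FPKM in shCtrl) and the synthetic enzyme Aldh1a2 (4.53 FPKM in shMef2c and 1.70 FPKM in shCtrl). Rbp4, a retinol carrier, had 4.55 FPKM in shMef2c, against 30.2 FPKM in shCtrl and 3.16 FPKM in WT, so its lower level held against shCtrl alone.

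Forebrain genes were lower in 5 of 7 measured members and higher in 1, the last being Eomes, which also marks streak. Over WT 3 of 6 were lower. Lhx2, an early eye and forebrain factor, had 0.31 FPKM in shMef2c, 6.12 FPKM in shCtrl, 16.8 FPKM in LincNDIME_KO and 3.38 FPKM in WT, and was highest in LincNDIME_KO. Hesx1 had 2.03 FPKM in shMef2c, against 6.55 FPKM in shCtrl and 0.91 FPKM in WT, and its log2 ratio turned to 0.67 against WT. Midbrain and hindbrain genes were lower in 7 of 15 and higher in 3, Irx2 (1.20 FPKM in shMef2c and 10.1 FPKM in shCtrl) and Nr2f2 (1.57 FPKM in shMef2c and 9.98 FPKM in shCtrl) being among the lower. The higher members included Fgf8 and Fgf17.

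Imprinted genes, expressed from 1 parental copy, were lower in 8 of 29 measured members and higher in 1. Besides Cdkn1c, the lower genes included Nnat (2.93 FPKM in shMef2c and 34.5 FPKM in shCtrl), Mest (45.6 FPKM in shMef2c and 175 FPKM in shCtrl), Sgce (9.68 FPKM in shMef2c and 39.9 FPKM in shCtrl) and Dlk1 (1.19 FPKM in shMef2c and 8.72 FPKM in shCtrl). Mest had 306 FPKM in WT and 5.99 FPKM in LincNDIME_KO. Igf2, a fetal growth factor, had 56.2 FPKM in shMef2c, against 195 FPKM in shCtrl and 56.9 FPKM in WT, a log2 ratio of -1.77 over shCtrl and -0.02 over WT. Grb10, an adaptor that restrains growth signalling, was the higher member with 122 FPKM in shMef2c, against 24.7 FPKM in shCtrl and 96.8 FPKM in WT, at 2.25 over shCtrl and 0.33 over WT. For Igf2 and Grb10, shCtrl was the culture that stood apart from the other hairpin culture and from WT.

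Cell cycle genes were lower in 3 of 30 measured members and higher in none, beside 4.78% lower and 4.49% higher over all genes compared. The 3 were Cdkn1c, the cyclin Ccnd2 (20.7 FPKM in shMef2c and 67.3 FPKM in shCtrl) and the inhibitor Cdkn2c (0.43 FPKM in shMef2c and 1.89 FPKM in shCtrl). Apoptosis genes (21 measured) and p53 targets (18 measured) held no member at 2-fold. The median of the p53 targets was 0.45 over shCtrl and 0.12 over WT. In the DNA methylation list 2 of 15 were higher, Tet1 and Dnmt3l, a cofactor of germ cell and embryonic methylation, with 90.7 FPKM in shMef2c, against 12.5 FPKM in shCtrl. Dnmt3b had 97.8 FPKM in shMef2c and 50.8 FPKM in shCtrl. Of 23 Polycomb genes, Phf19 (6.29 FPKM in shMef2c and 1.65 FPKM in shCtrl) and Phc1 (95.9 FPKM in shMef2c and 42.6 FPKM in shCtrl) were higher and Cbx8 (1.01 FPKM in shMef2c and 4.36 FPKM in shCtrl) and Bmi1 (6.62 FPKM in shMef2c and 15.8 FPKM in shCtrl) lower. None of 23 measured BAF chromatin remodeller genes reached 2-fold, and the lowest of them was Smarcc2 with 12.1 FPKM in shMef2c and 23.5 FPKM in shCtrl.

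Epithelial and mesenchymal genes differed in opposite directions in part. Among 20 epithelial genes 2 were higher, the splicing factor Esrp1 (26.1 FPKM in shMef2c and 10.6 FPKM in shCtrl) and the factor Grhl3 (7.52 FPKM in shMef2c and 1.36 FPKM in shCtrl), and 1 was lower. The lower one was the keratin gene Krt18 with 84.2 FPKM in shMef2c, against 224 FPKM in shCtrl and 80.0 FPKM in WT, so that its level was close to WT. With WT as the control 7 of 20 epithelial genes were higher and none was lower, with a median of 0.78, and 2 were higher over both. Among 18 measured mesenchymal genes 6 were lower and none was higher, led by Vim (81.1 FPKM in shMef2c and 267 FPKM in shCtrl), Zeb1 (3.53 FPKM in shMef2c and 12.5 FPKM in shCtrl) and Zeb2 (2.27 FPKM in shMef2c and 8.62 FPKM in shCtrl). Zeb2 and Vim are also expressed in neural progenitors. Fibroblast genes, which could come from the feeder layer used at day 0, reached 2-fold in none of 14 measured members, and their defining markers summed to 15.3 FPKM in shMef2c and 17.5 FPKM in shCtrl.

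Metabolic lists held few members past 2-fold, and over all genes compared 4.49% were higher and 4.78% lower. None of 30 nuclear oxidative phosphorylation genes, none of 20 cholesterol synthesis genes and none of 13 measured Lin28 and let-7 genes reached 2-fold. In glycolysis 2 of 21 were higher, the lactate dehydrogenase Ldhb (462 FPKM in shMef2c and 198 FPKM in shCtrl) and the pyruvate dehydrogenase kinase Pdk1 (43.0 FPKM in shMef2c and 16.3 FPKM in shCtrl). Amino acid genes were higher in 4 of 25, with Ass1, Tdh, the arginine transporter Slc7a3 (46.3 FPKM in shMef2c and 17.7 FPKM in shCtrl) and Arg1 (30.3 FPKM in shMef2c and 9.53 FPKM in shCtrl). In heat shock 2 of 17 were higher, Hspb1 and Hspb8 (9.55 FPKM in shMef2c and 3.95 FPKM in shCtrl), and in metal and antioxidant genes 3 of 25, led by Gstp2 and Nqo1 (18.5 FPKM in shMef2c and 5.98 FPKM in shCtrl). Interferon response genes were higher in 3 of 16, and in 0 against both control libraries.

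Genes of other lineages were checked as lists of their markers, beside 4.49% higher and 4.78% lower over all genes compared. Germline genes were higher in 10 of 17 measured members and lower in none, with a median of 1.07. Rhox5 had 130.4 FPKM in shMef2c and 29.8 FPKM in shCtrl. Dazl had 2.59 FPKM in shMef2c and 0.55 FPKM in shCtrl, and Sohlh2 had 15.1 FPKM in shMef2c and 3.73 FPKM in shCtrl. All were already present at day 0. In the library labelled shMef2c Rhox5, Dazl and Sohlh2 then stood at 128, 3.46 and 10.5 RPKM, and in shCtrl at 111, 2.20 and 8.80 RPKM. Dppa3, another higher member, is also counted among the pluripotency-associated genes. Most listed genes of the 2-cell-like state lay under the filter, and 4 of 5 measured were higher. Zscan4c had 7.07 FPKM in shMef2c, 0.53 FPKM in shCtrl and 13.4 FPKM in LincNDIME_KO. Zscan4f had 8.80 FPKM in shMef2c, 1.05 FPKM in shCtrl and 21.4 FPKM in LincNDIME_KO. With 0.53 FPKM in shCtrl, Zscan4c passed the filter through shMef2c, which tilts the count. Near-identical copies of both genes leave single values uncertain. The trophoblast list had 5 of 13 higher and 1 lower, but the higher ones (Cdx2, Esrrb, Eomes, Tfap2c and Rhox6) also sit in stem cell, streak or germline programmes. Its defining markers Elf5, Gata3, Plac1 and Tpbpa summed to 3.4 FPKM in shMef2c and 5.0 FPKM in shCtrl. Endothelial genes were higher in 2 of 4 measured, Pecam1 (14.6 FPKM in shMef2c and 5.36 FPKM in shCtrl) and Eng (6.86 FPKM in shMef2c and 1.48 FPKM in shCtrl), both present at day 0. The other measured members were Flt1, a VEGF receptor, with 5.02 FPKM in shMef2c and 2.52 FPKM in shCtrl, and Sox18, an endothelial transcription factor, with 0.54 FPKM in shMef2c and 1.59 FPKM in shCtrl. Under the filter, the junction gene Cdh5 had 0.72 FPKM in shMef2c and 1.22 FPKM in shCtrl and the receptor Tie1 had 0.09 FPKM in shMef2c and 0.40 FPKM in shCtrl. Neural crest genes were mixed, 3 of 6 higher and 1 lower, and 1 of 5 higher and 1 lower over WT. In the muscle list Mylpf and Acta2 were higher of 17 measured, and Acta2 had 12.3 FPKM in shMef2c, against 5.60 FPKM in shCtrl and 16.0 FPKM in WT.

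For blood and visceral endoderm genes the control libraries themselves stood apart. Globin and erythroid genes were lower in 4 of 6 measured, Hbb-bh1 with 0.35 FPKM in shMef2c, against 22.3 FPKM in shCtrl and 3.73 FPKM in WT and Hba-x with 0.14 FPKM in shMef2c, against 11.1 FPKM in shCtrl and 0.95 FPKM in WT. Against WT the median of the list was 0.38, but only 3 genes were measured there. These were Hbb-bh1, Epor and Lmo2, with log2 ratios of -1.81, 0.38 and 0.62. Hba-x, Hba-a1 and Hbb-b1 lay under the filter against WT, with log2 ratios of -0.77, -0.50 and -0.26. Endoderm genes were lower in 5 of 18 and higher in 2, with a median of -0.01 over shCtrl and 0.97 over WT, where 9 were higher and 1 lower. Apoa1, a lipoprotein component, had 8.70 FPKM in shMef2c, against 22.1 FPKM in shCtrl and 3.00 FPKM in WT, and Ttr had 0.71 FPKM in shMef2c, against 3.97 FPKM in shCtrl and 0.51 FPKM in WT. Cxcr4, a chemokine receptor, was lower against both, with 11.2 FPKM in shMef2c, against 31.0 FPKM in shCtrl and 26.0 FPKM in WT. Autism-associated genes were lower in 1 of 27 measured and higher in none, with a median of -0.04, beside 4.78% lower over all genes compared. The lower one was Ebf3, a factor of early neurons, with 0.25 FPKM in shMef2c and 6.00 FPKM in shCtrl.

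The genes that differed were set against the normal course of differentiation, measured in the WT line, whose libraries enter neither side of the comparison. A day 0 value was at hand for 11971 compared genes, from a table of RPKM values that was normalized separately, so the 2-fold classes of the WT course carry any difference in scale between the tables. Of 549 lower genes, 390 (71.0%) were 2-fold or more higher at day 5 than at day 0 in WT, and 11 (2.00%) were 2-fold or more lower. Of 483 higher genes, 254 (52.6%) were 2-fold or more lower at day 5 than at day 0 in WT, and 41 (8.49%) were higher. Over all compared genes the shares were 11.4% lower and 16.2% higher.

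**Figure D5:**
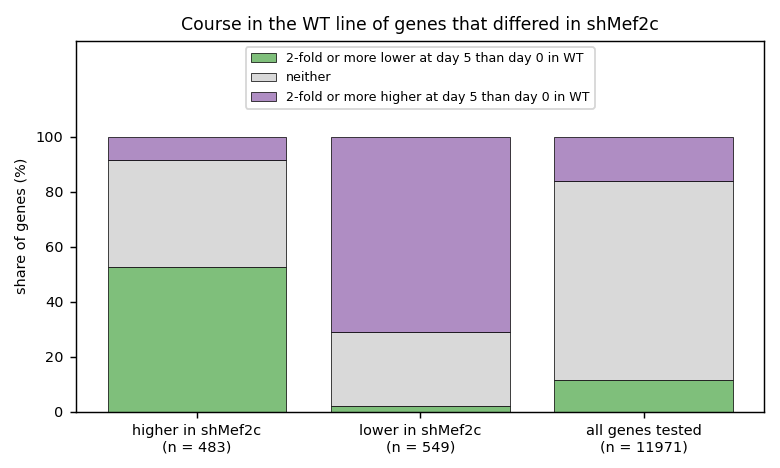
Stacked bars give the share of genes that were lower, neither or higher by 2-fold at day 5 than at day 0 in WT, for the 483 genes higher in shMef2c, the 549 lower in shMef2c and all 11971 compared genes with a day 0 value. The class lower at day 5 takes 52.6% of the higher genes, and the class higher at day 5 takes 71.0% of the lower genes.

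Read the other way, of the 1936 genes that were higher at day 5 in WT, 390 (20.1%) were lower in shMef2c and 41 (2.12%) were higher. The 41 that went past the WT direction held the caudal and streak genes Cdx2, Nkx1-2, Fgf8, Wnt8a, T, Gsc, Cer1 and Lef1. Also among them were Noto, a notochord factor, with 6.52 FPKM in shMef2c and 1.01 FPKM in shCtrl, and Car2, a carbonic anhydrase, with 264 FPKM in shMef2c and 66.8 FPKM in shCtrl. Trh, the thyrotropin-releasing hormone gene, was abundant at 644 FPKM in shMef2c, against 287 FPKM in shCtrl and 267 FPKM in WT. Of the 1365 genes lower at day 5 in WT, 254 (18.6%) were higher in shMef2c and 11 (0.806%) were lower.

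Promoters of the higher genes were poorer in CpG dinucleotides. The observed over expected CpG ratio, computed over the 300-base windows, had a median of 0.46 in 371 higher genes, against 0.70 in 412 lower genes and 0.78 in all 9808 genes with a window. A ratio under 0.4 was found in 166 higher genes (44.7%), in 77 lower genes (18.7%) and in 1167 of all (11.9%). Scarce genes had such promoters more often, but higher genes had the largest share at each level. At a mean of 20 FPKM or more, 34.9% of higher genes, 16.1% of lower genes and 5.99% of all genes were under 0.4. At a mean of 1 to 5 FPKM the shares were 54.5%, 23.2% and 22.9%, so lower genes were level with all genes there. Among genes 2-fold or more lower at day 5 than at day 0 in WT, 42.5% of the higher ones had a ratio under 0.4, against 20.4% of all genes of that course.

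The promoter of Nodal is shown as a low-CpG example among the higher genes, with a ratio of 0.23 over its window. Its 250 bases before the start (RefSeq, GRCm38.p6) hold 3 CpG dinucleotides, in capitals, while those of Hes5 above hold 32.
Nodal, chr10:61417722-61417971, plus strand: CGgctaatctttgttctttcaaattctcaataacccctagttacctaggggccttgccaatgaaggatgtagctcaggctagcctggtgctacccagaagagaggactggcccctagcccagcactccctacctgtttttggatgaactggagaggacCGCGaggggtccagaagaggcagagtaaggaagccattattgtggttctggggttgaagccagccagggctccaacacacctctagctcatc
Among the printed promoters the ratio was 0.89 for Klf2, 0.59 for Jun and 1.04 for Hes5, so a gene could be higher with a CpG-rich promoter, as Klf2 was.

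Chromosomes differed little. Chromosome medians of the log2 ratio ran from -0.18 on chromosome 11 (1006 genes) to 0.05 on chromosome 6 (577 genes) among the autosomes and X. The 5 measured genes of the Y chromosome had a median of 0.79, and 2 were higher. Of 209 measured long noncoding RNA genes 22 were higher and 19 lower, beside 4.49% and 4.78% of all genes compared. Of 758 measured features predicted by the authors, without a gene name, 72 were higher and 45 lower, a larger share than in the 11982 protein coding genes, with 483 and 555.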

How the data were processed

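The day 5 tables hold, per the file headers, estimated counts per gene (expected counts) and FPKM values, computed by the authors; a gene missing there, under 0.01 FPKM, counted as 0. RPKM values and estimated read counts of day 0 were deposited in a separate table. RSEM, HISAT, HISAT2, Bowtie, Bowtie2 and build mm9 appear in the submitters' processing notes without role or version, and nothing states whether counting used strand. The authors' deposited comparison table holds log2 ratios and adjusted p-values (false discovery rates), from a Poisson method per the labels.

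Ratios were log2 with a pseudocount of 1 FPKM, which makes the ratios of scarce genes smaller. Depth was 26616030 reads in shMef2c and 25996204 in shCtrl. Intervals are exact (Clopper-Pearson). Promoters came from RefSeq (GRCm38.p6), first listed start per gene, for 9808 of 13041 genes. Alternatives used edgeR 4.0.16 and DESeq2 1.42.0 factors on rounded estimated counts; Python 3.11.15 did the rest.

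The members and the 52 gene lists were chosen with earlier results of these data known. Where nothing says that cultures were repeated, values describe these libraries. Named genes follow a rule: the Mef2 family, the 15 highest and 15 lowest ratios among named genes, and per list the first 4 members, up to 6 with the largest ratios and, where few differ, up to 3 with the highest level. Chosen after their values were seen were Acvr1b, Acvr2b, Car2, Cyp26a1, Dhrs3, Dusp6, Egr1, Fgfr1, Foxh1, Gli1, Hoxb1, Hoxb2, Igf2bp1, Jag1, Lhx1, Mesp1, Msgn1, Nkx2-2, Nkx6-1, Noto, Nr4a1, Pcdhb17, Plac1, Rarg, Rbfox2, Rbpj, Slit2, Smad2, Smad4, Sp5, Sp8, Spry4, Stmn1, Stmn2, Stra6, Tbx6, Tet2, Tie1, Tmem62, Tpbpa and Trh. Some genes that the rule takes are not reported here.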

Additional observations from a re-analysis of the deposited data

Results flagged for a closer look

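Mef2c, the gene the hairpin is aimed at, differed in opposite directions at the 2 time points. Its share of reads in shMef2c was 0.238 times that in shCtrl at day 5 (20 and 82 reads, 95% counting interval 0.138 to 0.392). At day 0 its share in the library labelled shMef2c was 2.21 times that in shCtrl (44 and 20 reads, interval 1.27 to 3.95). Each side has 1 library at each time, so the difference between the time points was not tested.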

How the results depend on the processing

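The counts of 585 higher and 623 lower genes moved by over 1.5 times under these settings. Higher genes numbered 309 with a mean of 5 FPKM or more, 908 on estimated counts with TMM factors, 1386 at 1.5-fold, 79 at 4-fold and 1229 in the authors' deposited table. Lower genes numbered 962 with a pseudocount of 0.1 FPKM, 314 with a mean of 5 FPKM or more, 963 with DESeq2 size factors, 1792 at 1.5-fold, 123 at 4-fold, 414 against WT, 379 against both shCtrl and WT, and 1529 in the authors' deposited table. Recomputed list medians numbered 415, and 386 of them moved by less than 1.5-fold. Their sign changed 27 times, 21 of these for medians of 0.19 or less in size. Larger medians changed sign too. With a mean of 5 FPKM or more these were forebrain (0.69) and Hox (-1.33), where 2 and 5 genes were left. Against WT it was globin and erythroid genes (0.38), where 3 genes were left. With no filter it was endothelium (-0.18). Neural crest turned to -0.19 with TMM factors and -0.22 with DESeq2 size factors, against 0.40. Of the genes named above at 2-fold or more, Acta2 (-0.35), Apoa1 (1.28), Hesx1 (0.67), Krt18 (0.07), Rbp4 (0.42) and Ttr (0.18) changed sign of the log2 ratio against WT, and smaller ratios such as those of Otx2 (0.40) and Cyp26a1 (1.57) did too. The causes were not tested beyond the fewer genes the filter leaves. No paired analysis was possible because each group has 1 library, and for the same reason no library could be left out. Differences between cultures cannot be separated from the hairpin here.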
